A study of Mus musculus with 2 samples.

Results

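Cirbp and Rbm3, the cold-inducible RNA-binding genes, were followed in single tumour-derived cells of mice with medulloblastoma. They are 2 of the 31055 features that both count matrices list, each on a single row, and were chosen by their symbols. The ratio of Cirbp between the libraries was already known when the pair was chosen, so that ratio is given as a description. Their UMIs (unique molecular identifiers, each standing for 1 captured transcript) were read in barcodes that passed 500 detected genes and held no more than 10% mitochondrial UMIs. There were 10366 such barcodes in the FLASH library and 8461 in the standard library.

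The FLASH library came from a tumour given FLASH protons, a form of radiotherapy at ultra-high dose rate, and the standard library from a tumour after standard proton irradiation, with 1 library each. All animals were Math1-Cre;SmoM2fl/fl, a genotype in which Cre driven by Math1 (Atoh1) switches on an activated Smoothened in cerebellar granule neuron precursors and their progeny, so both libraries model tumours of the Sonic hedgehog (SHH) type. The labels give 5 Gy for both libraries while the series design gives 10 Gy, and the files do not settle which was used. Neither the time after irradiation nor the number of mice is given in the sources used here, and there was no unirradiated library.

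Both proteins carry a single RNA recognition motif followed by a glycine-rich tail. Mild cooling raises their transcripts and proteins in mammalian cells, and other stresses such as ultraviolet light and low oxygen are also known to act on them. CIRBP moves to stress granules under stress and acts on the stability, polyadenylation and translation of its target messages, including clock genes in mouse fibroblasts. RBM3 supports protein synthesis and, in the cooled mouse brain, the preservation of synapses. In immature and dividing neural cells Rbm3 is known to be abundant.

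The coding sequences show how close the genes are and bear on whether their reads can be told apart. In the GENCODE M21 transcripts used here, coding regions of 519 bases in Cirbp and 465 bases in Rbm3 were identical at 332 of 453 aligned positions (73.3%). The stretch below, coding bases 172 to 246 of each gene, holds their longest shared run, and capitals mark the 53 of 75 bases that are the same in both genes.
Cirbp: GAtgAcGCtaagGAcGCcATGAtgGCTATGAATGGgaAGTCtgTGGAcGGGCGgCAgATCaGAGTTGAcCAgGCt
Rbm3: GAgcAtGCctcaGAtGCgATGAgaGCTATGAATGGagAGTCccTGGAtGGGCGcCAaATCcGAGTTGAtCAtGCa
That longest run was 11 bases, and the longest shared by the 3′ untranslated regions, where most reads of this library type fall, was 10 bases. No long stretch was therefore common to the coding regions, or to the 3′ untranslated regions, of the transcripts used. The 5′ untranslated regions and the other transcripts of these genes were not compared.

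Cirbp (ENSMUSG00000045193) lies at chr10:80165985-80172786 on the plus strand of mm10 and Rbm3 (ENSMUSG00000031167) at chrX:8138975-8145880 on the minus strand. An antisense gene, Rbm3os, overlaps Rbm3 by 452 bases and had 38 UMIs in the FLASH library and 24 in the standard library, against 45705 and 35118 UMIs of Rbm3. A processed pseudogene, Rbm3-ps on chromosome 1, shares an exact run of 197 bases with the Rbm3 transcript and is not among the features, so reads in that run could have been placed in either copy.

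The RefSeq table of gene starts (GRCm38.p6) matched 1 of the 2 genes, Cirbp, with a pair of windows. The upstream window, chr10:80167589-80167888 on the plus strand, is shown because it holds the octamer described as a mild cold responsive element of the mouse gene, a site that the factor Sp1 binds. Capitals mark 1 match to TCCCCGCC, 2 matches to the CCAAT box (CCAAT) and 3 matches to the GC box (GGGCGG), searched on both strands and without overlap between them.
Cirbp: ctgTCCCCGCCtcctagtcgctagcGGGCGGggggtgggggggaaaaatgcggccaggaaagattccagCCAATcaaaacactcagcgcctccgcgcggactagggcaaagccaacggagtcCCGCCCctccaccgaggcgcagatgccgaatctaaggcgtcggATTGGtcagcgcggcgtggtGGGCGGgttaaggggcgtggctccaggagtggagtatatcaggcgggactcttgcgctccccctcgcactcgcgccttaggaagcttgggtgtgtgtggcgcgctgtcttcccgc
Of 32851 gene-start windows of that length, 5.38% held TCCCCGCC at least once, 11.7% held at least 2 CCAAT boxes and 10.7% held at least 3 GC boxes. The heat shock element core (GAANNTTC) and the CRE core (TGACG) had 0 matches in this window. These matches describe letters only.

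After doublet removal 9506 FLASH cells and 7888 standard cells remained, with medians of 5212 and 5571 UMIs and of 3.68% and 3.60% mitochondrial UMIs. The libraries shared 46 barcodes, 0.322% of the FLASH library and 0.358% of the standard library. Tumour-lineage cells, defined by granule neuron markers, numbered 7378 after FLASH and 6008 after standard. Macrophage-, microglia- and monocyte-like cells numbered 309 and 292, and oligodendrocyte lineage-like cells 163 and 114. Neither gene was among the variable genes that formed the clusters. With 1 library per group nothing could be tested between the libraries, and every interval below is at 95% and covers counting error only, not the spread between animals, preparations or cells.

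In tumour-lineage cells the genes differed most in early postmitotic granule neuron-like cells. Levels are given as CPM, the gene's UMIs per 1000000 UMIs summed over the cells of a class in 1 library. Cirbp was highest in those cells, which carry Cntn2, Tubb3 and Stmn2, and Rbm3 was highest in the dividing states and low in those neurons. Elsewhere the orders shared their ends, with histone-rich S phase-like cells near the top and the group led by Gm26917 lowest among the larger states for both genes. Between these the orders differed. Cells led by Cre, Eln and Gm17322 ranked 3 for Cirbp and 6 for Rbm3, and non-cycling SHH-active progenitor-like cells 7 and 4. Both libraries showed this, and the FLASH library was the higher one for both genes in every state with at least 20 cells per library.

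Cirbp stood at 243 CPM (232 to 255) after FLASH and 191 CPM (181 to 201) after standard in early postmitotic granule neuron-like cells, from 1879 and 1402 UMIs in 1690 and 1418 cells. Of their clusters, the one led by Neurod1 and Grin2b, genes of later granule neuron differentiation, had 261 CPM after FLASH and 211 CPM after standard. The cluster led by Klhl35 and Tubb3 had 224 CPM after FLASH and 170 CPM after standard. Within each library no other state with at least 20 cells in both libraries had an interval that reached that of these neurons.

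The next level of Cirbp was in the histone-rich S phase-like state, where replication-dependent histone genes lead, with 176 CPM after FLASH and 150 CPM after standard. Cells led by Cre, Eln and Gm17322 had 164 CPM after FLASH and 137 CPM after standard. G2 and mitosis-like cells had 159 and 136 CPM, and S phase entry-like cells 153 and 124 CPM. The Meis2 and Hox2-like state had 150 and 131 CPM. Non-cycling SHH-active progenitor-like cells, led by Hes1, had 136 CPM after FLASH and 108 CPM after standard. Their name rests on few leading genes, since Hes1 was the only marker of that state among their first 10. Barhl1, another marker of that state, was among the leading genes of the cells led by Cre, Eln and Gm17322. From the histone-rich S phase-like state down to these progenitors, each state overlapped the next in order in both libraries, so neighbours were not resolved. The lowest of the larger states was a shallow group led by the nuclear RNAs Gm26917, Miat and Kcnq1ot1, with 103 CPM after FLASH and 56.4 CPM after standard.

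For Rbm3 the dividing states came first. Histone-rich S phase-like cells had 1005 CPM (983 to 1028) after FLASH and 916 CPM (891 to 941) after standard. G2 and mitosis-like cells had 967 CPM after FLASH and 884 CPM after standard, and S phase entry-like cells had 927 and 844 CPM. These 3 dividing states overlapped their neighbours in the order but stood clear of every other named tumour state in both libraries. Progenitor-like cells outside the cycle had 786 CPM after FLASH and 698 CPM after standard, Meis2 and Hox2-like cells 778 and 663 CPM, and cells led by Cre, Eln and Gm17322 had 719 and 659 CPM.

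In early postmitotic granule neuron-like cells Rbm3 was at 490 CPM (474 to 506) after FLASH and 437 CPM (422 to 452) after standard. Its level differed between the neuron clusters in the opposite sense to Cirbp. The Klhl35 and Tubb3 cluster had 576 CPM after FLASH and 516 CPM after standard, and the Neurod1 and Grin2b cluster had 411 CPM after FLASH and 362 CPM after standard. Only the group led by Gm26917, Miat and Kcnq1ot1 was lower among the larger states, with 339 CPM after FLASH and 289 CPM after standard.

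**Figure D1:**
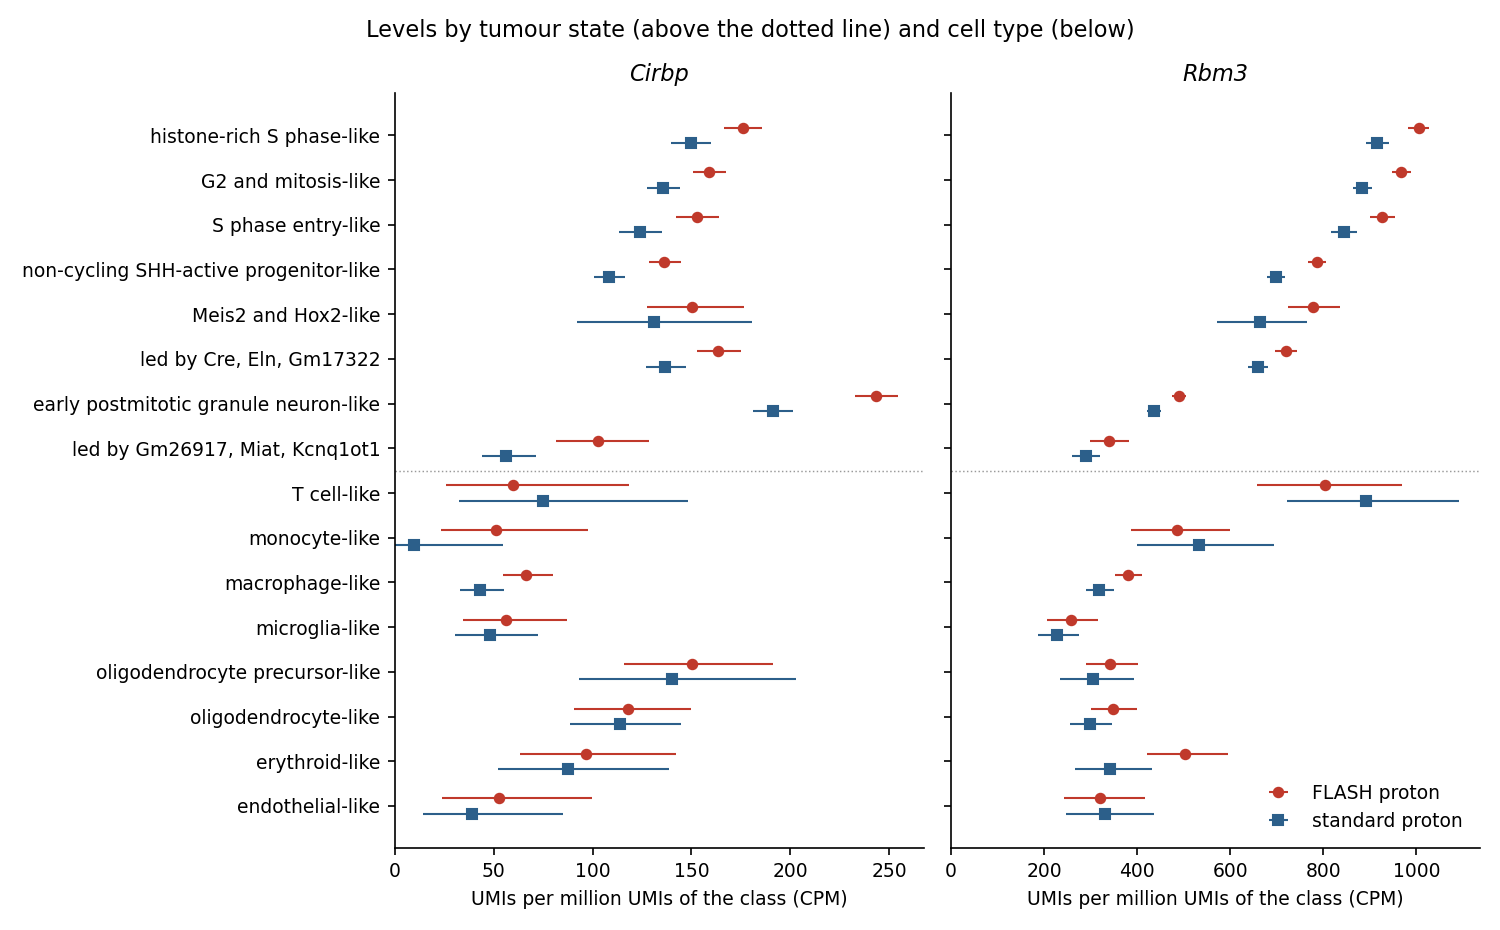
Levels of Cirbp (left) and Rbm3 (right) in CPM of the class sum, for 8 tumour states and 8 cell types with at least 19 cells in each library. Points are the FLASH (circles, upper) and standard (squares, lower) libraries and bars are exact Poisson intervals; Cirbp peaks in early postmitotic granule neuron-like cells at 243 and 191 CPM, where Rbm3 is at 490 and 437 CPM against 1005 and 916 CPM in histone-rich S phase-like cells.

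Set against the S, G2 and mitosis-like cells together, early postmitotic granule neuron-like cells had 1.49 times the Cirbp level in the FLASH library (log2 ratio 0.57, 0.49 to 0.66) and 1.39 times in the standard library (0.48, 0.38 to 0.57). Rbm3 in the same neurons was at 0.504 times the level of those dividing cells in the FLASH library (log2 ratio -0.99, -1.04 to -0.94) and 0.493 times in the standard library (-1.02, -1.07 to -0.96). The intervals of the libraries overlapped for both genes.

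A level in CPM is a share of the RNA counted, and these states differ in how much was counted. Early postmitotic granule neuron-like cells averaged 4568 UMIs per cell after FLASH and 5172 after standard, while the dividing cells averaged 7970 and 8844. Counted per cell, Cirbp was not higher in the neurons than in the dividing cells together. It had 1.11 UMIs per neuron-like cell against 1.30 per dividing cell after FLASH. In the standard library it had 0.989 UMIs per neuron-like cell against 1.21 per dividing cell. Against the dividing cells together, the higher Cirbp share in neurons was thus a share of a smaller total. Histone-rich S phase-like and G2 and mitosis-like cells had more Cirbp UMIs per cell than the neurons. S phase entry-like cells had fewer, at 1.05 after FLASH and 0.940 after standard. Fewer still were counted in cells led by Cre, Eln and Gm17322, at 0.887 and 0.844. Meis2 and Hox2-like cells had 0.877 and 0.822, and non-cycling SHH-active progenitor-like cells 0.791 and 0.695. For Rbm3 the count per cell widened the gap, with 2.24 UMIs per neuron-like cell against 7.74 per dividing cell after FLASH and 2.26 against 7.82 after standard.

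**Figure D2:**
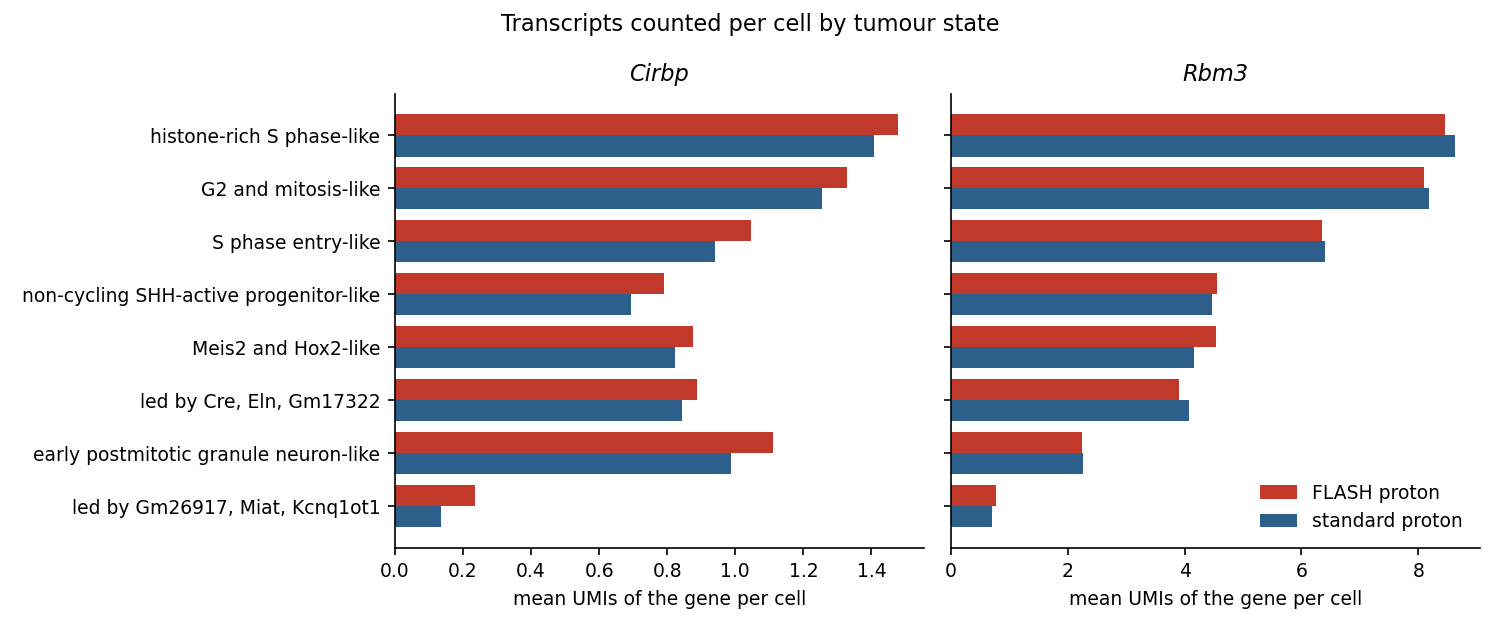
Mean UMIs of Cirbp (left) and Rbm3 (right) counted per cell in 8 tumour states, FLASH above standard in each pair of bars. Cirbp has 1.11 and 0.989 UMIs in early postmitotic granule neuron-like cells, 1.05 and 0.940 in S phase entry-like cells and 1.48 and 1.41 in histone-rich S phase-like cells. Rbm3 runs from 2.24 and 2.26 UMIs in early postmitotic granule neuron-like cells to 8.45 and 8.62 in histone-rich S phase-like cells. Rbm3 bars of the libraries are nearly level.

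Across all tumour-lineage cells Cirbp was at 171 CPM (167 to 175) after FLASH, from 7661 UMIs, and at 139 CPM (136 to 143) after standard, from 5480 UMIs. The FLASH library was 1.23 times higher, a log2 ratio of 0.29 (0.24 to 0.34). Rbm3 was at 808 CPM (799 to 816) after FLASH, from 36230 UMIs, and at 715 CPM (707 to 723) after standard, from 28123 UMIs. Its ratio was 1.13, a log2 ratio of 0.18 (0.15 to 0.20). Neither reached the 1.5 times used as the call, nor did any of the 3417 genes measured in these cells in that direction (0%), while 0.0878% were lower by that much. A gene counted as measured with 100 or more UMIs in all and 50 or more CPM in either library.

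Because ratios were small for nearly all genes, the rank places the members better than the call. The median log2 ratio over those 3417 genes was 0.01, with -0.13 and 0.13 as the 5th and 95th percentiles. Cirbp ranked 7 from the top and Rbm3 ranked 55. Both genes were higher after FLASH in each of the 8 tumour states with at least 20 cells per library, which held for 6.78% of the 2242 genes that reached 50 CPM in either library in each of these states. The states come from the same 2 libraries, so their directions are not independent of each other.

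Among these states the log2 ratio of Cirbp ran from 0.18 in Meis2 and Hox2-like cells (-0.33 to 0.76) to 0.87 in the group led by Gm26917 (0.38 to 1.36). The interval lay above 0 in 7 of the 8 states. In early postmitotic granule neuron-like cells it was 0.35 (0.25 to 0.45), with 9 as its rank among 3510 genes, and in non-cycling SHH-active progenitor-like cells 0.33 (0.20 to 0.46), with rank 12 of 3200. S phase entry-like cells had 0.30, cells led by Cre, Eln and Gm17322 had 0.26, histone-rich S phase-like cells 0.23 and G2 and mitosis-like cells 0.23. Only the group led by Gm26917 passed 1.5 times, where 1.44% of 3821 genes were higher by that much. In the states that did not pass it, the share of genes higher by 1.5 times was 0.0601% in G2 and mitosis-like, 0.0586% in S phase entry-like, 0.0584% in histone-rich S phase-like and 0.0312% in non-cycling progenitor-like cells, and 0% in early postmitotic cells and those led by Cre, Eln and Gm17322. The Gm26917 group rested on 78 Cirbp UMIs in 331 cells after FLASH and 69 UMIs in 509 cells after standard, with medians of 1975 and 2091 UMIs per cell and of 7.08% and 6.79% mitochondrial UMIs. Without it the ratio over tumour-lineage cells was 0.28.

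Rbm3 ratios were closer together, from 0.13 in cells led by Cre, Eln and Gm17322 (0.06 to 0.19) to 0.23 in the group led by Gm26917 (-0.01 to 0.47). The interval lay above 0 in 6 of the 8 states, the exceptions being that group and the Meis2 and Hox2-like state. Within states Rbm3 was not far up the list, at rank 181 of 3510 genes in early postmitotic granule neuron-like cells and rank 497 of 3424 in histone-rich S phase-like cells. When each library was clustered by itself, its ratio in early postmitotic granule neuron-like cells was 0.02. Counted per cell, Rbm3 had 8.45 UMIs after FLASH and 8.62 after standard in histone-rich S phase-like cells, and 8.10 and 8.18 in G2 and mitosis-like cells. In non-cycling progenitor-like cells it had 4.56 UMIs per cell after FLASH and 4.47 after standard. Cells of these states were deeper in the standard library, so a higher share after FLASH did not always mean more UMIs per cell.

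Cirbp was higher after FLASH per cell as well. It had 1.04 UMIs per tumour-lineage cell after FLASH and 0.912 after standard. Cells with at least 1 UMI made up 59.0% after FLASH and 53.4% after standard, and after thinning each cell to 2000 UMIs 29.3% (28.3 to 30.4) and 23.1% (22.0 to 24.2). Thinning left out 437 FLASH cells and 410 standard cells that were shallower. No cell had more than 10 Cirbp UMIs in either library, and leaving out the 5 cells with most UMIs gave a log2 ratio of 0.30. For Rbm3 the share with a UMI was 89.8% after FLASH and 87.2% after standard; thinned cells gave 74.6% (73.5 to 75.6) and 69.9% (68.7 to 71.1).

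**Figure D3:**
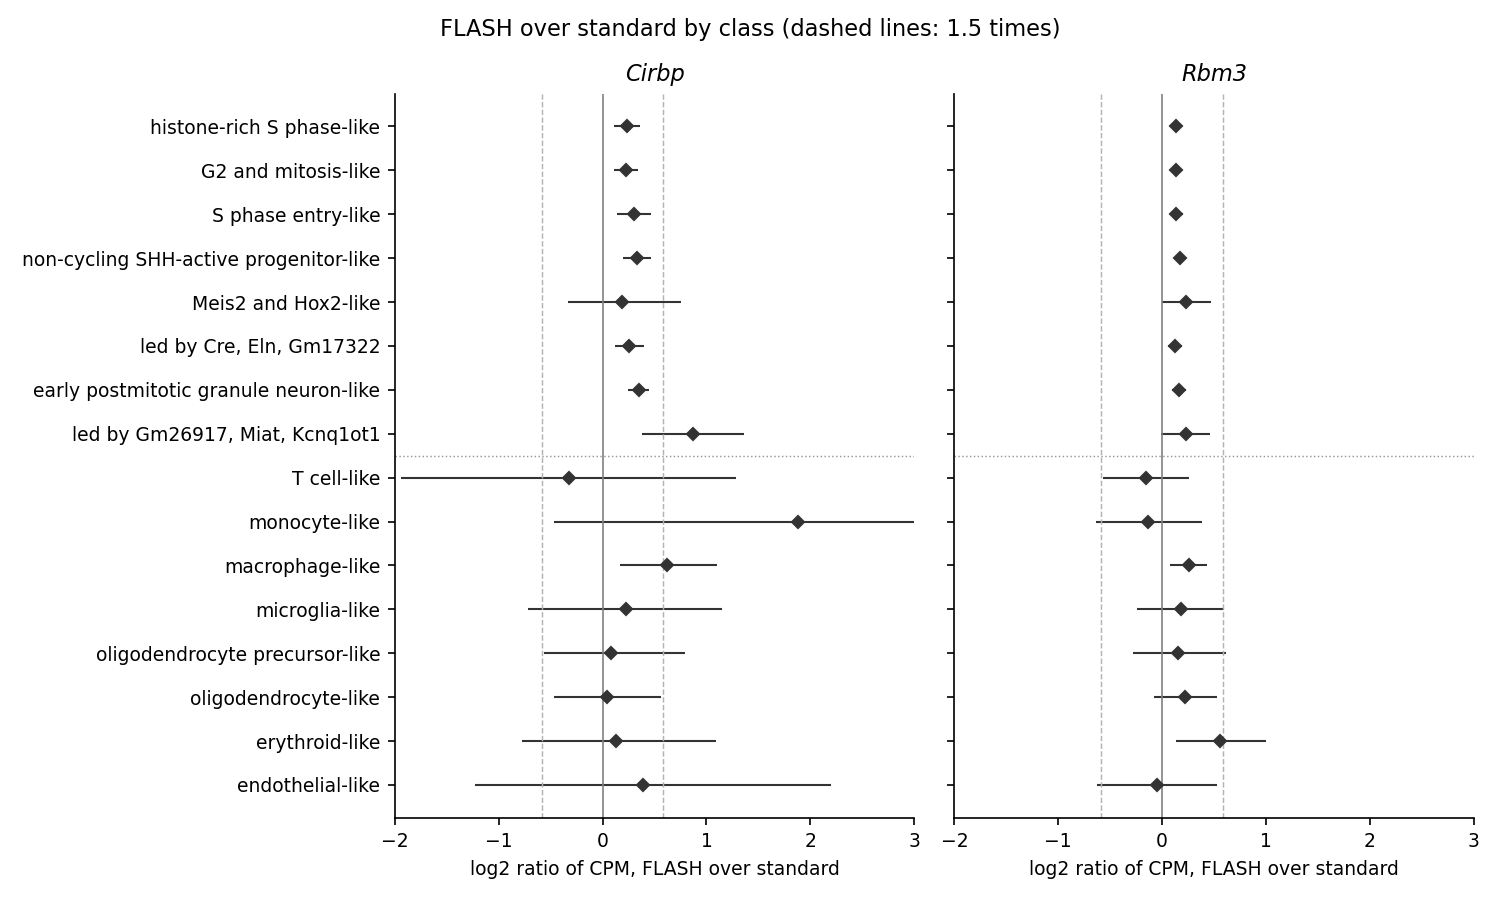
Log2 ratio of CPM, FLASH over standard, for Cirbp (left) and Rbm3 (right) in the same 16 classes; diamonds are ratios, bars are exact conditional binomial intervals and dashed lines mark 1.5 times either way. All 8 tumour states lie above 0 for both genes, Cirbp between 0.18 and 0.87 and Rbm3 between 0.13 and 0.23; the bar of Cirbp in monocyte-like cells runs past the right edge.

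Depth and mitochondrial share moved with the levels, and their part in the difference between libraries was not tested beyond these bins. In tumour-lineage cells Rbm3 was higher in deeper cells, at 365 CPM after FLASH and 352 CPM after standard below 2000 UMIs, and at 962 and 875 CPM in cells of 10000 to 20000 UMIs. Cirbp did not follow depth in that way. It had 141 CPM after FLASH and 88.8 CPM after standard below 2000 UMIs, 181 and 160 CPM from 4000 to 6000 UMIs, and 155 and 143 CPM from 10000 to 20000 UMIs. Over cells of 4000 to 10000 UMIs the log2 ratio was 0.30 for Cirbp and 0.22 for Rbm3. Dividing cells, highest in Rbm3, averaged 7970 UMIs after FLASH and 8844 after standard, and early postmitotic granule neuron-like cells 4568 and 5172. Depth and state were therefore not separated in these bins. The unnamed clusters of low depth were outside the bins, and had 981 and 873 CPM of Rbm3.

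Both genes were lowest where mitochondrial RNA was high. In cells with 7 to 10% mitochondrial UMIs Cirbp had 128 CPM after FLASH and 95.9 CPM after standard, and in cells below 2% it had 202 and 165 CPM. Rbm3 had 484 CPM after FLASH and 369 CPM after standard at 7 to 10%. It was highest at 2 to 3%, with 907 and 829 CPM, and had 800 and 742 CPM below 2%. Mitochondrial share and state were not separated in these bins either. The FLASH library was higher in all 5 depth bins and all 6 mitochondrial bins for both genes.

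**Figure D4:**
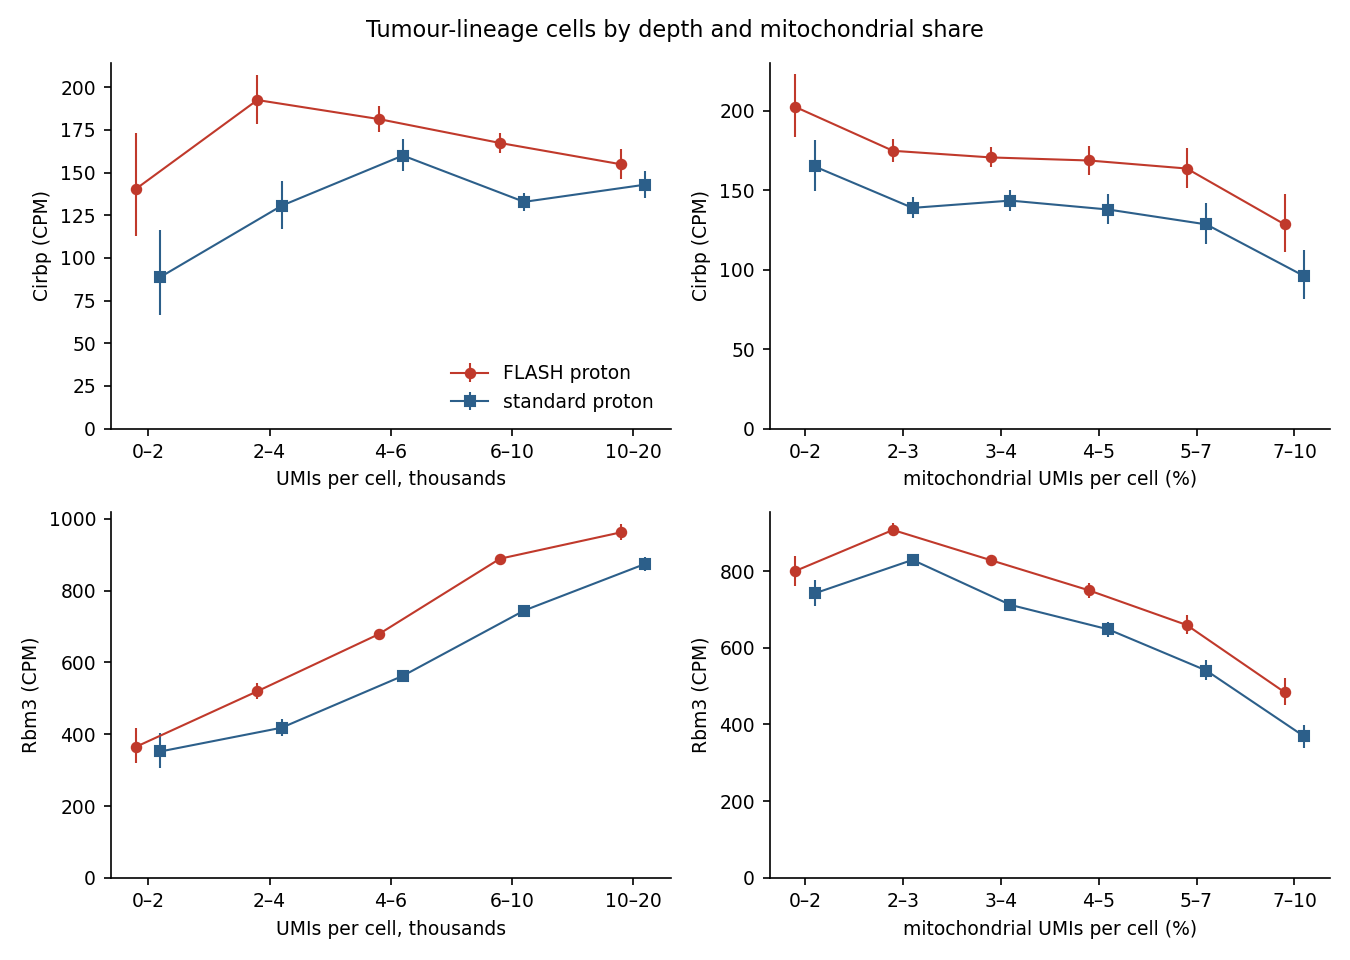
Cirbp (top) and Rbm3 (bottom) in CPM of tumour-lineage cells grouped by UMIs per cell (left) and by mitochondrial share (right); circles are FLASH, squares standard, and bars exact Poisson intervals. Rbm3 increases with depth to 962 and 875 CPM, Cirbp does not, and the FLASH line lies above the standard line in every bin.

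Most cell types outside the tumour lineage had less Cirbp than tumour-lineage cells, while the oligodendrocyte lineage came close to them. Macrophage-, microglia- and monocyte-like cells together had 63.7 CPM (53.7 to 75.1) after FLASH, from 142 UMIs, and 42.6 CPM (34.1 to 52.7) after standard, from 85 UMIs. That is a log2 ratio of 0.58 (0.18 to 0.99), just short of 1.5 times, a size that 1.17% of 2831 genes passed upward in these cells. Macrophage-like cells alone had 66.5 CPM after FLASH and 43.1 CPM after standard, a log2 ratio of 0.62 (0.17 to 1.10), past 1.5 times as 1.83% of genes were. With cells thinned to 2000 UMIs, the ratio over the 3 myeloid types was 1.31.

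Oligodendrocyte lineage-like cells had more Cirbp than the myeloid cells, at 132 CPM (110 to 157) after FLASH and 121 CPM (97.7 to 148) after standard, with a log2 ratio of 0.13 (-0.26 to 0.53), which was 0.67 with cells thinned to 2000 UMIs. Oligodendrocyte precursor-like cells had 150 and 140 CPM, against 171 and 139 CPM in tumour-lineage cells, and oligodendrocyte-like cells had 118 and 114 CPM. The few astrocyte-like cells had 10 UMIs in 16 cells after FLASH and 5 UMIs in 6 cells after standard. Erythroid-like cells had 96.9 and 87.8 CPM and endothelial-like cells 52.5 and 39.0 CPM, from 9 and 6 UMIs. Neutrophil-like cells had 0 Cirbp UMIs in 22 cells after FLASH and 0 in 14 cells after standard, which by the limit of 3 counts allows a share of cells with a UMI of up to 13.6% and 21.4%; this is no limit on cells expressing the gene, since they are shallow, with medians of 1588 and 1776 UMIs.

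Among the named types outside the tumour lineage, Rbm3 was highest in T cell-like cells. They had 803 CPM (658 to 970) after FLASH and 892 CPM (722 to 1091) after standard, from 107 and 95 UMIs. The interval overlapped that of non-cycling progenitor-like tumour cells after FLASH, and lay above it after standard. Monocyte-like cells had 485 CPM after FLASH and 532 CPM after standard. Macrophage-like cells had 380 CPM (351 to 411) and 318 CPM (290 to 349), and microglia-like cells 257 and 227 CPM. Erythroid-like cells had 503 CPM (422 to 596) after FLASH and 341 CPM (266 to 431) after standard, a log2 ratio of 0.55 with a lower bound of 0.13, from 135 and 70 UMIs. Of the FLASH UMIs 20 came from 1 cell. The share of erythroid-like cells with an Rbm3 UMI was not higher after FLASH, at 77.8% against 79.3% after standard.

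In the oligodendrocyte lineage Rbm3 stood at 345 CPM after FLASH and 300 CPM after standard, a log2 ratio of 0.20 (-0.04 to 0.45) that changed sign to -0.26 with cells thinned to 2000 UMIs. Endothelial-like cells had 321 and 332 CPM. The ratio over the myeloid cells was 0.26 (0.11 to 0.42). Among 7 cell types with at least 20 cells per library, Cirbp was higher after FLASH in 7 and Rbm3 in 5, but the interval lay above 0 in 1 and 2 of them. Of the smaller types, T cell-like, dendritic cell-like and astrocyte-like cells had lower values of both genes after FLASH, with log2 ratios of -0.32, -0.75 and -0.63 for Cirbp and -0.15, -0.60 and -0.27 for Rbm3. Of these 6 ratios only that of Rbm3 in dendritic cell-like cells had an interval clear of 0, and it changed sign to 0.10 when thinned. Fibroblast-like cells, 7 after FLASH and 5 after standard, went the other way, with log2 ratios of 1.83 for Cirbp and 0.69 for Rbm3. Both of their intervals included 0. Neutrophil-like cells had 4 and 6 Rbm3 UMIs. Both genes are expected in most cell types, so no type here gives a true zero, and the part of free RNA in the low levels was not tested.

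The balance of the genes differed between classes within a library. Rbm3 made up 66.8% (65.6 to 68.0) of the UMIs of both genes in early postmitotic granule neuron-like cells after FLASH and 69.5% (68.2 to 70.9) after standard. In G2 and mitosis-like cells it made up 85.9% (85.2 to 86.6) and 86.7% (85.9 to 87.4). Oligodendrocyte lineage-like cells were near the neurons at 72.3% and 71.3%, and T cell-like cells had 93.0% and 92.2%, with an interval that overlapped that of G2 and mitosis-like cells after standard. Monocyte-like cells had 90.4% after FLASH and 98.2% after standard, the standard share with 1 Cirbp UMI. These shares are set between classes and not read as a level of one gene over the other.

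Whether the genes vary together depended on the scale. Across all 23 clusters with at least 50 cells, log2(CPM + 20) of the pair had a Pearson correlation of 0.617 and a Spearman correlation of 0.620. It was 0.610 over 23 clusters in the FLASH library and 0.692 over 21 clusters in the standard library. Tumour-lineage clusters mostly lay above the other cell types for both genes. Within the 12 tumour-lineage clusters the Pearson correlation was 0.196 over both libraries, 0.0995 in the FLASH library and -0.0678 in the standard library. One of the 12, the Cdkn1a-high-like cluster, held 12 standard cells with 5 Cirbp and 6 Rbm3 UMIs. Without it the values were 0.157 over both libraries, -0.0560 in the FLASH library and 0.255 in the standard library, so the sign within each library turned on that cluster. Clusters share library, depth and free RNA, so these are descriptions without a test.

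Neither gene was a close companion of the other. Of 7588 genes ranked across all clusters by their correlation with Cirbp, Rbm3 came 1599, and Cirbp came 921 when ranked for Rbm3. Each gene kept its cluster order between the libraries better than it followed the other gene. Over 21 clusters the FLASH and standard levels correlated at 0.930 for Cirbp and 0.982 for Rbm3, with FLASH higher in 21 clusters for Cirbp and 19 for Rbm3. Over the 12 tumour-lineage clusters these correlations were 0.499 and 0.944, with FLASH higher in 11 and 12. Without the Cdkn1a-high-like cluster, which is not among the 21, they were 0.943 and 0.997 over 11 clusters, with FLASH higher in 11 for both genes.

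**Figure D5:**
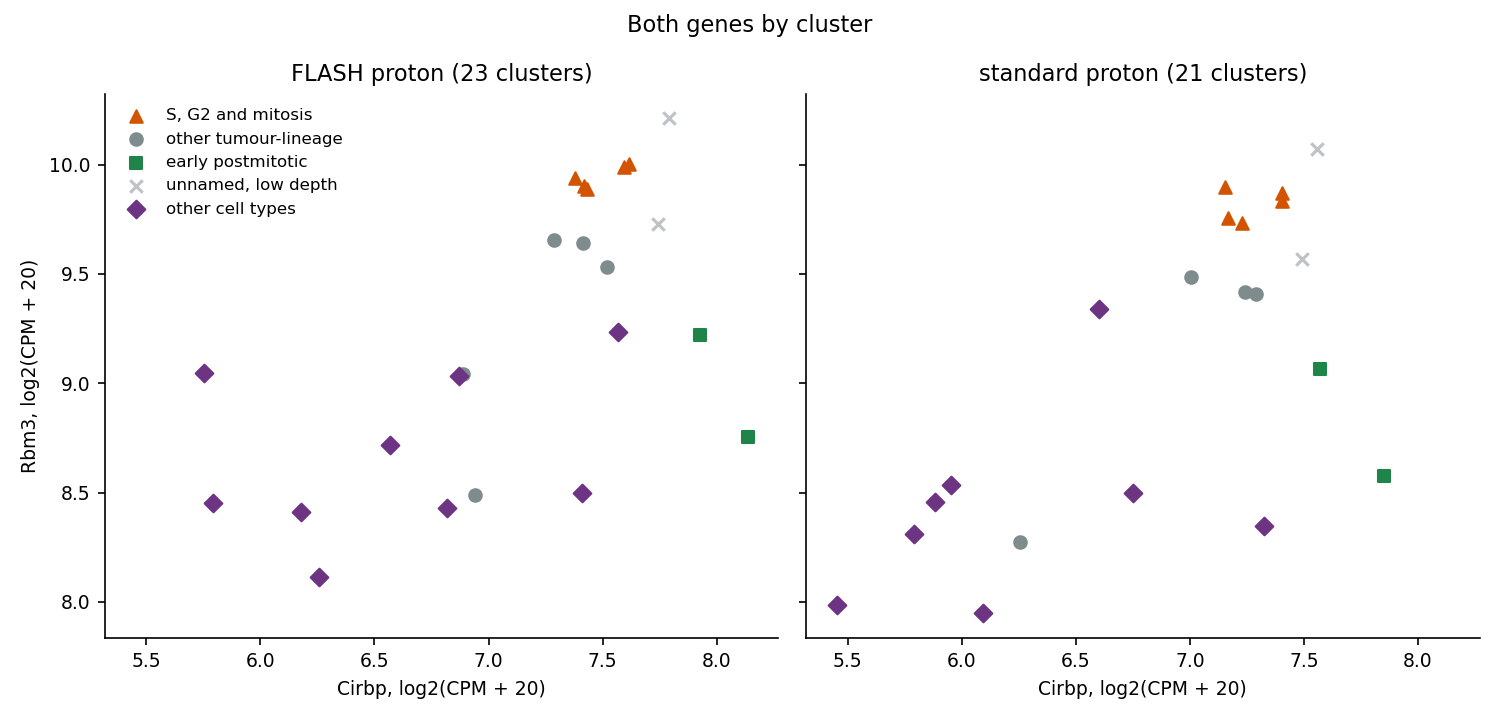
Cirbp against Rbm3 by cluster, both as log2(CPM + 20), in the FLASH library (left, 23 clusters) and the standard library (right, 21 clusters); marks show the class of each cluster. One unnamed low-depth cluster is the highest for Rbm3 in each panel, with S, G2 and mitosis clusters next; clusters of other cell types lie below those for Rbm3, some of them within the tumour-lineage range of Cirbp, and early postmitotic clusters lie to the right but lower. The correlation is 0.610 and 0.692 over the clusters drawn, and 0.0995 and 0.255 over the 12 and 11 tumour-lineage clusters among them.

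From cell to cell the correlation of the pair was close to 0. In tumour-lineage cells thinned to 2000 UMIs, the Pearson correlation was -0.0266 over 6941 FLASH cells and -0.0251 over 5598 standard cells. UMIs of both genes were found in 21.7% of FLASH cells, where the product of the single shares gives 21.9%, and in 16.0% of standard cells, where the product gives 16.1%. Within single states the correlation ran between -0.191 in 154 Meis2 and Hox2-like FLASH cells and 0.122 in 164 FLASH cells led by Gm26917. In the larger states it stayed close to 0, for example 0.0445 in 1589 FLASH and -0.0197 in 1351 standard cells of the early postmitotic type. Centred within cluster and library over 12539 cells it was -0.00498. Centred within library, Rbm3 ranked 7905 of 8094 genes by its correlation with Cirbp, near the lowest end. Centred within cluster and library it ranked 5488. The highest of those genes reached 0.128 and 0.0566 with Cirbp. With 0 or 1 Cirbp UMI in most thinned cells, relations could be missed at this depth, so values near 0 do not show independence.

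The genes whose pattern was most like each member were named by the highest Pearson correlation. For Cirbp across the 23 clusters these were Arl3 (0.936), Stmn3 (0.933), Ptov1 (0.933), Rab39b (0.929) and Eid2 (0.922). Stmn3, a neuronal stathmin, had 833 CPM after FLASH and 812 CPM after standard in early postmitotic granule neuron-like cells, and 407 and 391 CPM in histone-rich S phase-like cells. Over the 12 tumour-lineage clusters they were Dda1 (0.948), Rab39b (0.937), Csnk2b (0.911), Pcmt1 (0.910) and Serf1 (0.899). Over single tumour-lineage cells the highest were Tuba1a (0.128), Rtn1 (0.122), Basp1 (0.121), Gap43 (0.113) and Neurod1 (0.111). Tuba1a, Rtn1, Basp1 and Gap43 belong to growing axons and neurites, and Neurod1 is a granule neuron transcription factor.

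For Rbm3 across the 23 clusters the most alike were Snrpb (0.957), Eif2s1 (0.953), Snrpf (0.948), Cycs (0.938) and Lsm4 (0.933). Snrpb and Snrpf encode core proteins of the spliceosomal ribonucleoproteins, Lsm4 a relative of these, and Eif2s1 the alpha subunit of a translation initiation factor. Snrpb had 262 CPM after FLASH and 265 CPM after standard in early postmitotic granule neuron-like cells, and 538 and 565 CPM in histone-rich S phase-like cells. Over the 12 tumour-lineage clusters they were Fkbp3 (0.992), Srsf9 (0.989), Snrpf (0.984), Mrpl42 (0.980) and Lsm4 (0.980). Over single cells the highest were H2afz (0.277), Ppia (0.244), Hmgb1 (0.233), Ptma (0.228) and Ran (0.218). Once cells were centred within cluster and library the highest was Ppia at 0.132 for Rbm3 and Ubb at 0.0566 for Cirbp.

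Lists of related genes in tumour-lineage cells show what surrounded the members, each read beside 11953 genes with at least 100 UMIs, of which 51.3% lay above 0, 0.870% were past 1.5 times, and the median log2 ratio was 0.0036. Of 40 RNA-binding relatives and splicing factors 25 were higher after FLASH, with a median of 0.03 and 0 past 1.5 times. Hnrnpd, an AU-rich element binding protein, had 679 CPM after FLASH and 600.5 CPM after standard, a log2 ratio of 0.18 (0.15 to 0.20). Son, a nuclear speckle protein, had 622 and 713 CPM, a ratio of -0.20 (-0.22 to -0.17). Rbm4 had 0.20 and Srsf2 0.11.

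Of 24 kinases and factors that act on cold-inducible transcripts or their products 13 were above 0, with a median of 0.0043 and 0 past 1.5 times. The CLK kinases, temperature-sensitive kinases of splicing factors, were lower after FLASH. Clk1 had 201 CPM after FLASH and 233 CPM after standard (-0.22, -0.26 to -0.17), Clk2 had 24.1 and 28.4 CPM (-0.23, -0.35 to -0.11), and Clk4 had 47.9 and 53.8 CPM (-0.17, -0.26 to -0.08). Clk3, a list member outside the naming rule and looked up after the values of the others were seen, had 38.0 and 42.3 CPM (-0.16, -0.25 to -0.06). Without the cells led by Gm26917, which were 331 after FLASH and 509 after standard, their ratios ran from -0.20 to -0.15. Bdnf had 0.38 (-0.01 to 0.78) on 135 and 91 UMIs. Sp1, named for the octamer above and outside the naming rule, had 39.0 CPM after FLASH and 38.7 CPM after standard.

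The other temperature-linked lists had medians near that of all genes. Of 30 heat shock and chaperone genes 16 were above 0 (median 0.0041), with Hspa8 at 1586 CPM after FLASH and 1750 CPM after standard (-0.14), Hspa5 at -0.14, Dnajb9 at -0.11 and Bag3 at 0.19 (-0.05 to 0.43). Of 19 clock genes 8 were above 0 (median -0.02, or -0.10 with cells thinned to 2000 UMIs), with Dbp, an output gene of the clock, at 11.7 and 13.4 CPM (-0.20, -0.37 to -0.02), Rorb at -0.17, Per2 at -0.17 and Hlf at 0.22. The intervals of Per2 and Hlf included 0. Neither list held a gene past 1.5 times.

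Of 27 stress granule and translation control genes 16 were above 0, with a median of 0.01 and 1 past 1.5 times. That gene was Trib3, a target of the ATF4 stress branch, at 0.88 (0.28 to 1.54) on 70 and 33 UMIs. Eif4ebp1, whose product holds back the cap-binding factor eIF4E, stood at 90.6 CPM after FLASH and 65.1 CPM after standard, a log2 ratio of 0.48 (0.41 to 0.55). Chac1 stood at 0.46 and Asns at 0.29.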

How the data were processed

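The authors deposited raw UMI counts per gene and barcode. Per the file headers they came from Cell Ranger 6.1.2, and per the submitters' processing notes from mm10. No source used here gives the annotation release. Barcodes with at least 500 genes and at most 10% mitochondrial UMIs were kept, which left out 2352 and 1551 of 14269 FLASH barcodes and 2819 and 1587 of 12867 standard barcodes. The libraries held 63178900 UMIs (FLASH) and 55532202 UMIs (standard). Scrublet in scanpy 1.11.5 marked 0 cells in both libraries by its automatic cutoff, so the highest scores were removed at 0.8% per 1000 cells, 860 FLASH and 573 standard cells. The libraries were clustered together without batch integration, from 2000 variable genes (Cirbp and Rbm3 kept out), 30 components, 15 neighbours and Leiden resolution 1 (leidenalg 0.10.2).

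Clusters were named from marker lists, with the suffix -like: a type needed markers averaging 1.5 or more as log2 ratios, with at least 3 markers at 1 or more, a tumour state at least 3 markers at 0.5 or more. These cutoffs were set after seeing the data. Clusters with a median depth below 1/3 of their libraries' stayed unnamed unless their own markers led them, which left 1486 FLASH and 1353 standard cells unnamed.

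Counts were summed per class and library. The log2 ratio is FLASH over standard after adding 0.5 count to each sum. Intervals at 95% are exact Poisson for CPM, Clopper-Pearson for shares and conditional binomial for ratios, and cover counting error only; a count of 0 was read against 3 counts. Cells were thinned by drawing 2000 UMIs per cell. The functions were tested on simulated data. Beside both members, the text names the 5 genes most correlated with each and, from each list, the 4 with the largest absolute ratio. The members, the lists and the tests were chosen with earlier results of these data known. Gene positions and transcripts come from GENCODE M21, gene-start windows from RefSeq (GRCm38.p6). Columns not used numbered 0.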

Additional observations from a re-analysis of the deposited data

Results flagged for a closer look

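Rbm3 in dendritic cell-like cells went against the tumour-lineage cells: its log2 ratio, FLASH over standard, was -0.60 (-1.17 to -0.05), with 44 UMIs in 14 cells after FLASH and 75 UMIs in 15 cells after standard, whereas tumour-lineage cells had 0.18 (0.15 to 0.20). The difference between these cell types was not tested, and with cells thinned to 2000 UMIs the dendritic cell-like ratio was 0.10.

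Barcodes outside the comparisons also held both genes. Those with fewer than 500 genes had 83.8 CPM of Cirbp after FLASH and 76.3 CPM after standard, and 375 and 335 CPM of Rbm3. Those above 10% mitochondrial UMIs had 79.5 CPM of Cirbp after FLASH and 64.5 CPM after standard, and 342 and 310 CPM of Rbm3. All 8 values lie below those of tumour-lineage cells in the same library.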

How the results depend on the processing

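Ratios and levels were recomputed with at least 200 or 1000 genes, at most 5% or 20% mitochondrial UMIs, doublets kept, cells thinned to 2000 UMIs, means over cells, no mitochondrial or ribosomal protein genes in the total, and, for ratios, equal cluster mix, no 5 highest cells, separate clustering and the median ratio set to 0. Chosen after seeing the data were the ratios without shared barcodes, without the cells led by Gm26917 and for cells of 4000 to 10000 UMIs, the correlations over clusters with at least 20 cells in each library, and every alternative of the neuron against dividing contrast. No value is given for oligodendrocyte lineage-like cells at 1000 genes, since fewer than 10 cells per library took that name. No paired analysis was possible because each group has 1 library.

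Over 15 alternatives the tumour-lineage log2 ratio ran from 0.28 to 0.39 for Cirbp and from 0.15 to 0.22 for Rbm3. The values outside the counting interval were 0.39 for Cirbp when thinned, and for Rbm3 0.15 with equal cluster mix and 0.22 for cells of 4000 to 10000 UMIs. The neuron against dividing contrast of Cirbp moved to 0.49 at 200 genes, 0.46 with doublets kept and 0.67 when thinned in the FLASH library, and to 0.30 with separate clustering in the standard library. For Rbm3 it moved in the FLASH library to -0.74 at 200 genes, -0.93 at 20% mitochondrial UMIs, -0.89 with doublets kept, -0.93 with separate clustering, and -1.06 both when thinned and without mitochondrial and ribosomal protein genes. In the standard library it moved to -0.79, -0.93, -0.92 and -0.84 in the first 4 of these and to -1.10 in the last. The correlation across clusters was 0.196 in tumour-lineage clusters alone and 0.520 to 0.703 under the other settings. Over single cells of the standard library it was 0.00526 without thinning. Rbm3 in dendritic cell-like cells changed sign to 0.10 when thinned. In each case the cause was not tested.

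Of 128 other ratios 120 stayed within their interval, 4 moved up, 3 moved down and 1 went to the opposite sign from an interval clear of 0. One of the 3 that moved down, Rbm3 in the oligodendrocyte lineage, also changed sign, to -0.26 when thinned. Of 188 levels 133 stayed, 36 were higher and 19 lower. Of 18 list medians 14 stayed and 4 were lower: S phase at 0.03 with equal cluster mix and 0.08 when thinned, p53 targets at 0.03 and clock genes at -0.10 when thinned. Counts under about 100 UMIs, as in most cell types outside the tumour lineage, leave intervals wider than the differences seen in tumour cells.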

Other observations

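Lists outside the temperature and translation themes were read in the same tumour-lineage cells. Of 21 immediate early genes 17 were lower after FLASH and 4 higher, with a median log2 ratio of -0.16 and 1 past 1.5 times. Junb had 53.2 CPM after FLASH and 67.5 CPM after standard (-0.34, -0.42 to -0.26), and Ier3 had -0.33; Klf2, on 84 and 43 UMIs, had 0.77 and Zfp36 0.33 (-0.02 to 0.70). Of 24 p53 targets 16 were higher, with a median of 0.09 (0.03 with cells thinned to 2000 UMIs), 0 past 1.5 times, and Cdkn1a, an inhibitor of cyclin-dependent kinases, at 51.5 and 37.9 CPM (0.44, 0.35 to 0.54). Sesn2 had 0.49, Plk2 0.36 and Pmaip1 0.53 (-0.01 to 1.10).

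Of 43 S phase genes 37 were higher after FLASH (median 0.11, or 0.03 with the clusters held to the same mix; 0 past 1.5 times), with Ubr7 at 0.28, Ung at 0.19, Uhrf1 at 0.19 and Tipin at 0.17. Of 51 G2 and M phase genes 34 were higher (median 0.02, 0 past 1.5 times), with Ctcf at 0.14 and Cdca2, Ndc80 and Bub1 each at 0.13.

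Barcodes left out as likely doublets had 182 CPM of Cirbp after FLASH and 141 CPM after standard, and 784 and 743 CPM of Rbm3. The unnamed clusters of low depth had 198 and 163 CPM of Cirbp and 981 and 873 CPM of Rbm3.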
